A study of Mus musculus with 6 samples.

Results

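Genes of T cells and natural killer (NK) cells were followed in inguinal adipose tissue (iAT) of mice at postnatal day 6. The 36 genes were chosen by name for their place in the receptor complex, the CD4 and CD8 lineages, naive and regulatory T cells or cytotoxic cells, and each symbol was matched exactly to 1 of the 19831 genes that the deposited expression table lists. RNA sequencing compared 3 wild-type samples with 3 Npffr1-KO samples, which lack *Npffr1*, the gene of neuropeptide FF receptor 1. Both groups consisted of iAT from animals kept under specific pathogen free conditions, and total RNA was extracted with TRIzol. Strain, sex, littermate status and the construction of the mutant allele were not given in the labels, nor whether each sample was 1 animal, so the p-values below measure only the spread between these samples.

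T cells recognise antigen through a receptor whose signal is carried by the CD3 chains and the zeta chain to the kinases LCK and ZAP70. CD4 and CD8 mark the helper and the cytotoxic lineage, while NK cells kill without an antigen receptor and share their granule proteins with cytotoxic T cells. In adipose tissue both kinds of cell live among adipocytes and macrophages, and the inguinal depot also encloses a lymph node.

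All 36 genes were detected in both genotypes. The invariant *Cd3e* chain stood at 633 normalized counts in the wild-type value and 986 in the Npffr1-KO value. Of 7 thymocyte markers, 4 had a mean under 10, among them the recombinase gene *Rag1* with a wild-type value of 4.85 and *Dntt* with 2.11. The other three were *Ptcra* with 20.6, *Ccr9* with 129 and *Cd1d1*, which other cells also make, with 2695. The constant regions of the T cell receptor chains were not analysed here. Genes of lymph node stroma and of high endothelial venules were abundant, with wild-type values of 5536 for the chemokine *Ccl21a* and 5392 for *Glycam1*, a ligand of L-selectin. The sampled tissue therefore held transcripts typical of a lymph node besides those of fat, and in such bulk RNA fewer cells of a type and less RNA per cell cannot be told apart.

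The deposited table holds 1 value per gene and genotype, in normalized counts. Over all genes the values summed to 23137343 for wild-type and 23640005 for Npffr1-KO. The ratio of the 2 values is a moderated one, drawn towards equality for genes with few reads. For 10 of the 36 genes, all with a mean of up to 300, the reads of each of the 6 libraries could be worked back from the precision of the deposited values, and for the other 26 they could not. The libraries are called the first, the second and the third within a genotype by falling size factor, which ran from 1.04 to 1.01 in wild-type and from 1.04 to 0.916 in Npffr1-KO, and none could be tied to a sample number. The targeted gene was barely detected: *Npffr1* had normalized reads of 0.966, 0 and 4.96 in the wild-type libraries, against 0, 0 and 0 in those of Npffr1-KO. So few reads check the labels only weakly.

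In the authors' genotype values, 32 of the 36 genes were higher in Npffr1-KO and 4 were lower. The median log2 ratio of Npffr1-KO to wild-type was 0.59 over the 36 genes and 0.01 over all 15309 genes whose mean was at least 10. A log2 ratio of at least 0.5 was reached by 24 of the 36 genes, against a background of 4.37% of all genes. A ratio of -0.5 or less was reached by none, against 4.78% of all genes. These counts come from 1 value per genotype and carry no test. The 36 genes were chosen with earlier results of these data known, so the background is no blind comparison. The genes just inside the limit of 0.5 were *Cd28* at 0.53 and *Ctla4* at 0.53, and those just outside were *Icos* at 0.497 and *Cd247* at 0.49.

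**Figure D1:**
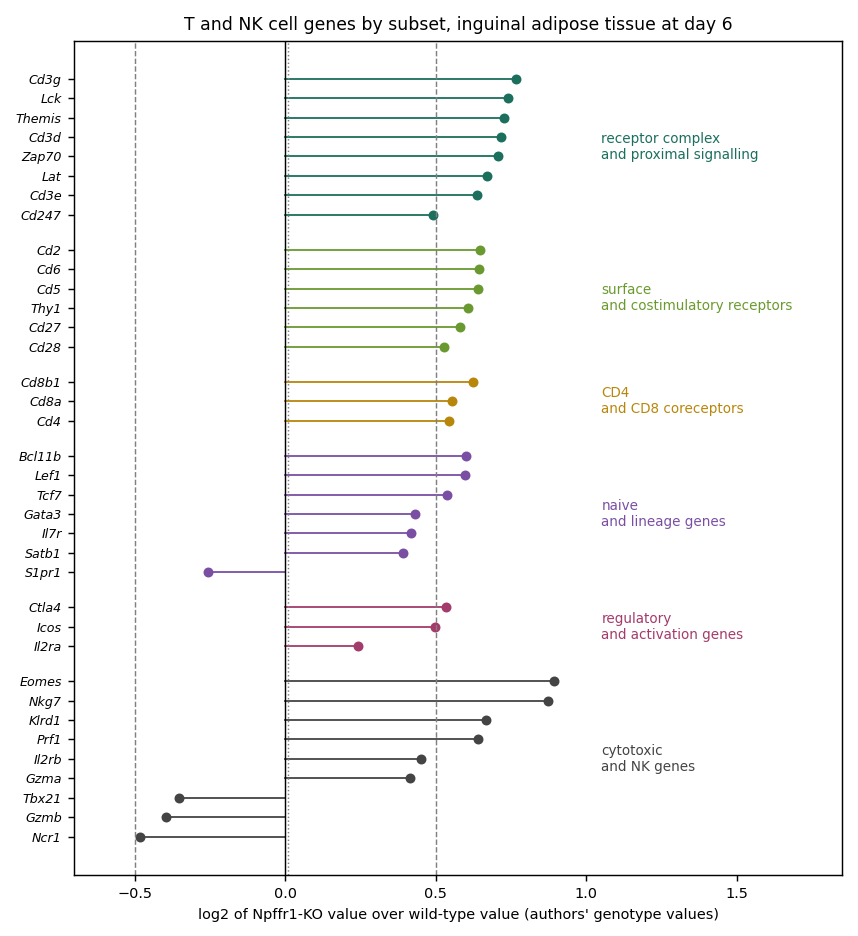
Log2 ratio of the Npffr1-KO value to the wild-type value (horizontal axis) for each of the 36 genes, grouped by subset. Dashed lines mark 0.5 in either direction and the dotted line the median of all genes. The points lie right of 0 for 32 genes and left of it for *S1pr1*, *Tbx21*, *Gzmb* and *Ncr1*.

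The receptor complex and its first signalling steps formed the subset with the highest median, 0.71 over 8 genes, and all 8 were higher in Npffr1-KO. Within classes of gene length its median was 0.55, below the 0.57 of the coreceptors, so this rank was not kept. *Cd3g*, the gamma chain of CD3, went from a value of 1112 in wild-type to 1891 in Npffr1-KO. *Cd3d*, the delta chain, went from 614 to 1008, and *Cd3e*, the epsilon chain, from 633 to 986. The log2 ratios of these chains were 0.77, 0.72 and 0.64. *Cd247*, which encodes the zeta chain, was the lowest of the subset at 0.49, with 721 in wild-type and 1011 in Npffr1-KO. *Lck*, the kinase bound to the coreceptors, had 1675 and 2798, a log2 ratio of 0.74. *Zap70*, the kinase recruited to phosphorylated CD3 chains, had 532 and 868, and *Lat*, the adaptor that it phosphorylates, 849 and 1351. Their log2 ratios were 0.71 and 0.67. *Themis*, which sets the signalling threshold during thymic selection, had 199 and 330, a log2 ratio of 0.73.

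The 3 CD3 genes are neighbours on chromosome 9 in RefSeq, and the starts of *Cd3d* and *Cd3g* face away from each other 1355 bases apart. The 100 bases before each start are shown because these genes lie together and had like ratios. They are given 5′ to 3′ in the direction of the gene, from RefSeq on GRCm38.p6, with matches to the ETS letters AGGAAG or their reverse CTTCCT and to the RUNX letters TGTGGT or ACCACA in capitals.
Cd3d, GRCm38.p6 chr9:44981686-44981785, plus strand: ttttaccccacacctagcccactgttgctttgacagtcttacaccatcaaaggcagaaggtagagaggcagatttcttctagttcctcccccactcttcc
Cd3g, GRCm38.p6 chr9:44980432-44980531, minus strand: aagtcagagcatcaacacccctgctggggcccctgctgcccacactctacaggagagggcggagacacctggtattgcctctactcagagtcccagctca
Cd3e, GRCm38.p6 chr9:45009612-45009711, minus strand: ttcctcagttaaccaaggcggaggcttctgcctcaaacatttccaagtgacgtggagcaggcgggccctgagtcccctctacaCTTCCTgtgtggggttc
Within these windows *Cd3e* held 1 ETS match, and *Cd3d* and *Cd3g* held none. RefSeq promoters were at hand for 26 of the 36 genes, with 39 start sites, and 17 of these, 43.6%, held an ETS match within the 250 bases before the start, compared with 29.5% of all 32851 promoters. Such a match is a run of letters and no sign of binding. The letters CTTTGA, found at sites of TCF and LEF factors, or their reverse were present at 10.3% of the members' start sites and at 13.8% of all promoters. A sequence bound by the GATA family, AGATAA or its reverse, was present at 2.56% and 9.99%.

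Surface and costimulatory receptors lay within a narrow band. All 6 had log2 ratios between 0.53 and 0.65, with a median of 0.62. *Thy1*, a surface glycoprotein of T cells that fibroblasts and neurons also make, had the largest value per kb of gene length of all 36 genes, 2015 in wild-type and 3067 in Npffr1-KO. *Cd2*, an adhesion receptor, followed within the subset with 973 and 1524 per kb. *Cd5* and *Cd6*, a pair of adjacent genes for inhibitory scavenger receptors, had log2 ratios of 0.64 and 0.64. The costimulatory receptors *Cd27* and *Cd28* were at 0.58 and 0.53.

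The coreceptors gave nearly the same ratio for both lineages. *Cd4* had 1514 in wild-type and 2209 in Npffr1-KO, a log2 ratio of 0.55. *Cd8a*, one chain of CD8, had 1080 and 1586, a log2 ratio of 0.56. *Cd8b1*, the other chain, had 1125 and 1735, a log2 ratio of 0.62. With 1 added to each value, the ratio of *Cd8a* to *Cd4* was 0.713 in wild-type and 0.718 in Npffr1-KO. Reads of the single libraries were not recovered for either gene, so the difference between these ratios was not tested.

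**Figure D2:**
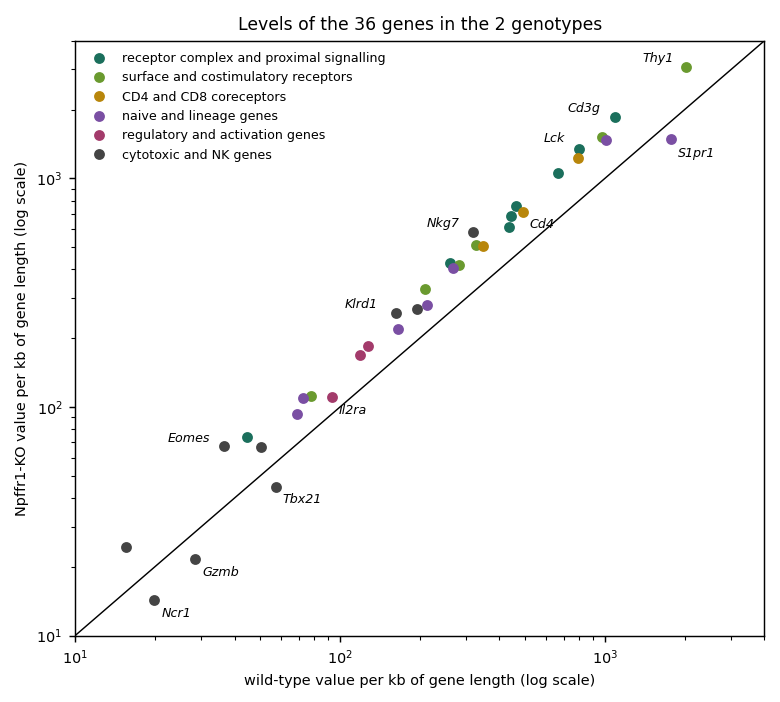
Npffr1-KO value per kb of gene length against wild-type value per kb for the 36 genes, both axes on a log scale, coloured by subset. The line marks equal values. *Thy1* lies highest at 2015 in wild-type and 3067 in Npffr1-KO, and *S1pr1*, *Tbx21*, *Gzmb* and *Ncr1* lie below the line.

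Naive and lineage genes had a lower median of 0.43, and 6 of 7 were higher in Npffr1-KO. Within classes of gene length their median was 0.51, above the 0.45 of the regulatory and the 0.43 of the cytotoxic subset, so this low rank was not kept. All of them but *Il7r*, and *Thy1* besides, were listed as also expressed by non-lymphoid cells. The 29 members outside that list had a median of 0.62, with 26 higher and 3 lower. *Tcf7* and *Lef1*, transcription factors of naive and memory T cells, had log2 ratios of 0.54 and 0.60. *Bcl11b*, which commits precursors to the T lineage, was at 0.60. *Il7r*, the receptor for the survival cytokine IL-7, had 532 in wild-type and 711 in Npffr1-KO, a log2 ratio of 0.42. *Satb1*, a chromatin organiser, was at 0.39. *S1pr1*, the receptor with which lymphocytes leave lymph nodes, had 5384 and 4504, a log2 ratio of -0.26. It is also strongly expressed by endothelium. The endothelial markers *Cdh5*, with 23029 in wild-type and 17863 in Npffr1-KO, and *Pecam1*, with 18487 and 15218, had log2 ratios of -0.37 and -0.28, and 5 of 6 markers of that list were lower. Whether endothelial RNA accounts for the *S1pr1* value was not tested.

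*Gata3*, a factor of type 2 helper cells that non-lymphoid cells also express, was the 1 gene of the naive and lineage subset with reads per library. Its normalized reads were 205, 217 and 247 in the wild-type libraries, against 357, 297 and 258 in those of Npffr1-KO. The groups did not overlap, though the third Npffr1-KO library lay close above the third wild-type library.

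Among regulatory and activation genes the values were 390 in wild-type and 551 in Npffr1-KO for *Icos*, a costimulator of activated T cells, and 412 and 488 for *Il2ra*, the alpha chain of the IL-2 receptor. *Il2ra* had a log2 ratio of 0.24, the smallest of the 32 genes that were higher. *Ctla4*, an inhibitory receptor, neighbours *Cd28* and *Icos* on chromosome 1. Its normalized reads were 236, 234 and 258 in wild-type and 358, 399 and 308 in Npffr1-KO, without overlap. The regulatory T cell factor *Foxp3*, which is not among the 36 genes, had 400 and 509, a log2 ratio of 0.35. The ratio of *Il2ra* to *Cd4* was 0.273 in wild-type and 0.221 in Npffr1-KO, and that of *Foxp3* to *Cd4* 0.265 and 0.231. These ratios were not planned and were not tested.

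Cytotoxic and NK genes were the subset with the widest spread, from -0.48 to 0.89, with 6 of 9 higher and 3 lower. The T-box factor *Eomes*, found in memory CD8 T cells and NK cells, had the highest log2 ratio of all 36 genes at 0.89. Its normalized reads were 122, 97.9 and 178 in the wild-type libraries, against 287, 248 and 231 in those of Npffr1-KO. Every Npffr1-KO library lay above every wild-type library. *Tbx21*, the related factor T-bet of type 1 helper and NK cells, had 176, 125 and 139 in wild-type and 126, 96.9 and 117 in Npffr1-KO, a log2 ratio of -0.35 in the genotype values. The groups overlapped by the second wild-type library and the first Npffr1-KO library. The ratio of *Eomes* to *Tbx21* in the genotype values was 0.933 in wild-type and 2.20 in Npffr1-KO. This ratio sets the highest member against a low one, was not planned and was not tested.

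*Nkg7*, a protein of cytotoxic granules, had 259 in wild-type and 474 in Npffr1-KO, a log2 ratio of 0.87. *Klrd1*, the CD94 chain of NK receptors, had normalized reads of 114, 117 and 183 in wild-type and 232, 211 and 232 in Npffr1-KO, and the groups did not overlap. *Il2rb*, the chain shared by the receptors of IL-2 and IL-15, had 530 and 725, a log2 ratio of 0.45.

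The granule enzymes and the NK receptor NKp46 were the least abundant of the 36 genes, and their groups overlapped. *Prf1*, the pore-forming perforin, had 21.2, 29.4 and 40.7 normalized reads in wild-type and 75.2, 39.4 and 40.4 in Npffr1-KO. The first Npffr1-KO library stood well above the other five. *Gzma*, granzyme A, had 59.9, 34.3 and 34.7 in wild-type and 67.5, 41.4 and 70.9 in Npffr1-KO. *Gzmb*, granzyme B, had 47.3, 31.3 and 44.7 in wild-type and 41.4, 21.2 and 26.2 in Npffr1-KO. *Ncr1*, which encodes NKp46 and marks NK cells and type 1 innate lymphoid cells, had 38.6, 13.7 and 38.7 in wild-type and 24.1, 15.1 and 19.6 in Npffr1-KO. Its second wild-type library was the lowest of all 6, and the wild-type libraries differed among themselves by more than the means of the genotypes did. The ratio of *Gzma* to *Cd3e* in the genotype values was 0.0711 in wild-type and 0.0606 in Npffr1-KO. It was not tested because *Cd3e* had no reads per library.

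RUNX factors act in cytotoxic lymphocytes, and their letters TGTGGT or ACCACA lay within 250 bases before the start of 5 of the 7 cytotoxic and NK genes with a RefSeq promoter and of 2 of the 19 other members with one, *Lck* and *Zap70*. Counted by start site, 8 of the 39 start sites of the members, 20.51%, held them, against 4614 of all 32851 promoters, 14.05%. The counts of 5 of 7 and 2 of 19 are of genes with a match at any start site, so they have no like background. Whether the cytotoxic and NK genes hold these letters more often than other genes was not tested. The cytotoxic promoters with a match are shown because their genes had ratios of both signs, *Gzma*, *Prf1* and *Nkg7* above 0 and *Gzmb* and *Ncr1* below. They read 5′ to 3′ on GRCm38.p6 up to the base before the start, with RUNX and ETS matches in capitals as above. Of the 2 start sites of *Ncr1*, the first listed that held a RUNX match was chosen.
Gzma, GRCm38.p6 chr13:113100982-113101231, minus strand: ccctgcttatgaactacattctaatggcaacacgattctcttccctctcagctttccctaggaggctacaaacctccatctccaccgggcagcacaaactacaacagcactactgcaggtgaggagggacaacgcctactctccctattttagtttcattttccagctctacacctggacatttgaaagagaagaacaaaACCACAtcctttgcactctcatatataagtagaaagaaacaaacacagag
Gzmb, GRCm38.p6 chr14:56262335-56262584, minus strand: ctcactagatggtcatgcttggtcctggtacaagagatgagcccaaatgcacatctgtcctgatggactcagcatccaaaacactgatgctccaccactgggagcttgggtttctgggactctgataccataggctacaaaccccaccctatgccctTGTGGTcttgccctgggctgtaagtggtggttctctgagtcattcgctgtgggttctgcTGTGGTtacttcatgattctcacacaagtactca
Prf1, GRCm38.p6 chr10:61297586-61297835, plus strand: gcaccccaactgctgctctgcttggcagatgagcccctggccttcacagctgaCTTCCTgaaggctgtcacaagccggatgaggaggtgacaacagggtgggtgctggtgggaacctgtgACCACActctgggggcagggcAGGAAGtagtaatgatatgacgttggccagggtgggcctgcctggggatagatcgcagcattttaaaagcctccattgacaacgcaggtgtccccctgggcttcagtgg
Nkg7, GRCm38.p6 chr7:43436888-43437137, plus strand: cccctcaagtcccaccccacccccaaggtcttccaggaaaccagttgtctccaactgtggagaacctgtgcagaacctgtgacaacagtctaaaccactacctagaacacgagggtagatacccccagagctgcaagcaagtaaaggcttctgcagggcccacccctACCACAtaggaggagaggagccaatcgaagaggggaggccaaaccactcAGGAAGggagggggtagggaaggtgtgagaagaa
Ncr1, GRCm38.p6 chr7:4337465-4337714, plus strand: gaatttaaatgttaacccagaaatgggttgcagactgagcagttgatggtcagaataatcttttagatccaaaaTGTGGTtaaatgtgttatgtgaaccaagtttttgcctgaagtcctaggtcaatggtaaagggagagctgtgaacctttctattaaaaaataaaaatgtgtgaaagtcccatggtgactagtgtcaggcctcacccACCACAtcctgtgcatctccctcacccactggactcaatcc
In the windows shown, *Gzmb* and *Ncr1* held 2 RUNX matches each, and *Gzma*, *Prf1* and *Nkg7* held 1 each. *Prf1* also held 2 ETS matches and *Nkg7* 1.

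**Figure D3:**
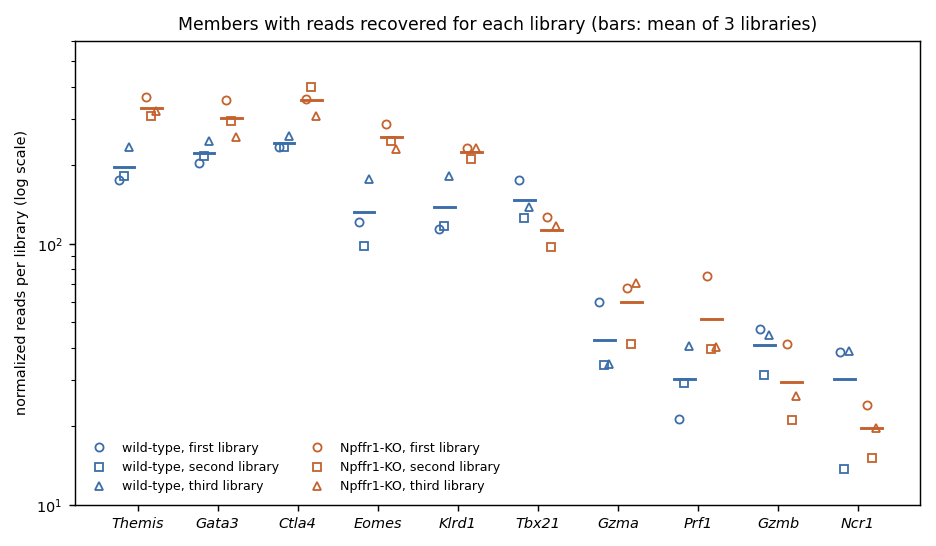
Normalized reads in each library (vertical axis, log scale) of the 10 genes whose reads were recovered, with wild-type in blue and Npffr1-KO in orange. Symbols mark the first, the second and the third library of each genotype and bars the mean of 3. The genotypes do not overlap for *Themis*, *Gata3*, *Ctla4*, *Eomes* and *Klrd1*, and overlap for the rest.

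Reads per library allowed a test of the genotypes with limma on log2(normalized reads + 1), fitted over all genes with recovered reads and a mean of at least 5, with Benjamini-Hochberg adjustment. For genes with a mean of up to 95, reads were found without a count model, in a search that bounds how far the libraries may differ. Of the 36 genes 4 could be fitted there, and none passed an adjusted p of 0.05 or had an unadjusted p under 0.05. *Prf1* came nearest, with an unadjusted p of 0.0566 from limma, which went under 0.05 in some alternatives given at the end. Of all 3769 genes in that fit 0.0265% passed, which was 1 gene, while 409 had an unadjusted p under 0.05. The log2 differences, Npffr1-KO minus wild-type, were 0.48 for *Gzma*, 0.72 for *Prf1*, -0.49 for *Gzmb* and -0.49 for *Ncr1*, and limma's adjusted p lay at 0.641, 0.481, 0.653 and 0.738. The 95% interval of the difference ran from -0.20 to 1.16 for *Gzma* and from -1.37 to 0.39 for *Ncr1* in the wider fit described next. Their standard errors there were 0.32 and 0.42, so differences of about 0.5 were not detectable for these genes of few reads.

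A fit over genes with a mean of up to 300 was added after the data had been seen and held 10 of the 36 genes. It called 0.645% of its 5887 genes, and 2 of the 10. *Themis* was higher in Npffr1-KO by 0.76 ± 0.14 (SE) on the log2 scale, with 197 ± 32.3 normalized reads in wild-type and 332 ± 29.6 in Npffr1-KO (mean ± SD, n = 3 each) and an adjusted p of 0.0311 from limma. *Eomes* was higher by 0.98 ± 0.20 (SE), with 132 ± 40.9 and 256 ± 28.6 normalized reads and an adjusted p of 0.0384 from limma. *Ctla4*, *Klrd1* and *Gata3* had log2 differences of 0.54, 0.74 and 0.43 with limma's adjusted p at 0.0553, 0.0873 and 0.167, and did not pass. *Tbx21* had a difference of -0.36 with a 95% interval from -0.80 to 0.07, not adjusted for the number of genes.

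Both calls were lost when most single libraries were left out, while the differences kept their direction. Leaving out 1 library at a time, the adjusted p of limma for *Themis* ran from 0.0364 to 0.205 and passed in 2 of 6 fits, without the third wild-type or without the second Npffr1-KO library, and was lost without any of the other four. For *Eomes* it ran from 0.0380 to 0.247 and passed in 1 of 6, without the third wild-type library, and was lost without any of the other five. With all libraries but only genes up to a mean of 200, limma's adjusted p for *Eomes* was 0.0682 and did not pass. The log2 differences stayed between 0.68 and 0.89 for *Themis* and between 0.79 and 1.21 for *Eomes*. Above a mean of 95 reads were accepted in part by their probability under a count model, so the p-values of this fit may be too small, which was not tested. Exact permutation of 3 against 3 libraries cannot go below a two-sided p of 0.1 for any single gene.

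**Figure D4:**
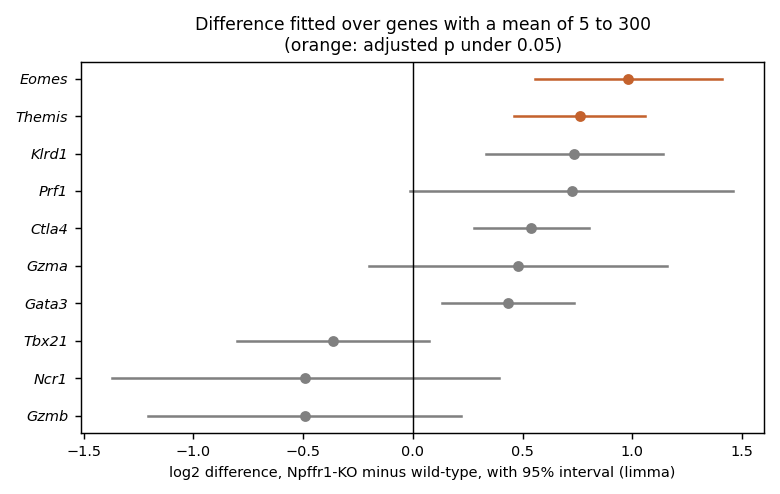
Log2 difference, Npffr1-KO minus wild-type (horizontal axis), with its 95% interval for the 10 genes in the limma fit over genes with a mean of 5 to 300. Orange marks *Eomes* and *Themis*, which had an adjusted p under 0.05, and the intervals of *Gzma*, *Prf1*, *Tbx21*, *Gzmb* and *Ncr1* include 0.

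All Npffr1-KO libraries exceeded all wild-type libraries in 5 of the 10 genes, against 8.24% of the 5887 genes. In none did they all lie below, against 11.2%. The reads of these 5 genes were all accepted in part by their probability under a count model, as were those of *Tbx21*, which overlapped. *Gzma*, *Prf1*, *Gzmb* and *Ncr1*, whose reads were found without the model, overlapped. Most of the 5887 genes were also found without it, so the shares are not like for like. Whether the model favours groups without overlap was not tested. The shares without overlap given below carry the same limit in part. The libraries also differed within a genotype. In wild-type the third library was the highest in 7 of the 10 genes and the second the lowest in 6. In Npffr1-KO the first library was the highest in 7 and the second the lowest in 7. Summed over the 10 genes the normalized reads were 1195, 1082 and 1397 in wild-type and 1934, 1676 and 1627 in Npffr1-KO. The B cell gene *Vpreb3* likewise had its wild-type maximum in the third library, with 36.7, 45.0 and 71.5 in wild-type and 87.7, 62.6 and 92.7 in Npffr1-KO. *Chst4*, a sulfotransferase of high endothelial venules, had 192, 110 and 114 in wild-type and 145, 156 and 144 in Npffr1-KO, with its maximum in the first wild-type library.

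Over the 6 libraries, the genes outside the lists with the profile closest to that of *Themis* were *Jakmip1*, *B3gnt7*, *Cox6a2*, *5031414D18Rik* and *Acoxl*, with Pearson's r of 0.994, 0.994, 0.989, 0.989 and 0.987 on log2(normalized reads + 1). They are the closest of all fitted genes over 6 points that share their libraries, and describe likeness only. *Themis* stood here for the receptor complex, since its other 7 genes had no reads per library.

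Other genes of the T cell receptor pathway had a median log2 ratio of 0.50, and 25 of the 27 measured were higher in Npffr1-KO. *Ptprc*, the phosphatase CD45 of all leukocytes, had 3242 in wild-type and 4777 in Npffr1-KO, a log2 ratio of 0.56. *Csk*, the kinase that restrains LCK, was at 0.32, and *Fyn*, a kinase also made outside the lymphoid lineage, at 0.01. *Plcg1*, a phospholipase of many cell types, was at -0.45, with 2470 and 1811. Of 6 genes of this list with reads per library, 5 were higher without overlap between the genotypes, against 8.24% of all genes fitted. None passed limma's adjusted threshold, against 0.645%. An unadjusted p under 0.05 from limma was reached by 5, and by 857 of the 5887 genes in the fit up to a mean of 300.

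Other genes of naive, helper and regulatory T cells had a median of 0.39, with 22 of 23 higher. *Klf2*, a factor of quiescent T cells that endothelium also makes, was at 0.19, *Zbtb7b*, the factor of the CD4 lineage, at 0.20, and *Ikzf1*, a factor of all lymphocytes, at 0.39. *Dapl1*, a gene of naive and memory CD8 T cells, was at 1.30. Its normalized reads were 54.1, 71.5 and 116 in the wild-type libraries, against 209, 173 and 267 in those of Npffr1-KO. The groups did not overlap, and the log2 difference was 1.46 ± 0.26 (SE) with an adjusted p of 0.0268 from limma in the fit up to a mean of 300. Of the 10 genes with reads in this list 4 were higher without overlap and 1, *Dapl1*, passed, against 8.24% and 0.645% of all genes fitted. With 1 library left out its adjusted p from limma ran from 0.0274 to 0.205 and passed in 2 of 6 fits, without the third wild-type or the second Npffr1-KO library.

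Other cytotoxic and NK cell genes had a median of 0.18, with 12 of 17 higher and 5 lower. The chemokine *Ccl5* was at 0.17, and the adaptors *Fcer1g* and *Tyrobp*, which macrophages also express, at 0.14 and 0.31. *Sh2d2a*, a T cell adaptor, was the highest of the 17 at 0.71 and *Itga2*, an integrin of NK cells and platelets, the lowest at -0.69. *Klre1*, whose mean of 8.09 kept it out of the 17, was at 1.19. Of the 11 genes of this list with reads per library and a mean of at least 5, 3 were higher without overlap, 0 were lower without overlap and 0 passed the adjusted threshold of limma in the fit up to a mean of 300, against 8.24%, 11.2% and 0.645% of all genes. An unadjusted p under 0.05 from limma was reached by 3 of the 11, and by 857 of the 5887 genes in that fit. *Klrb1c*, which encodes the NK1.1 antigen, had 41.5, 38.2 and 50.6 normalized reads in wild-type and 43.4, 38.3 and 48.0 in Npffr1-KO. Its log2 difference was 0.00 with a 95% interval from -0.61 to 0.60. Common cytokine receptor genes had a median of 0.17, and *Il2rg*, the common gamma chain, was at 0.40.

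Marker lists of other cells had medians nearer 0 than the receptor complex, with skeletal muscle as the exception, and no list was tested against another. B cell markers had a median log2 ratio of 0.30, with 11 of 12 higher and values summing to 17947 in wild-type and 20315 in Npffr1-KO. *Cd79a*, a chain of the B cell receptor, was at 0.33, while *Cr2*, the complement receptor of mature B cells and follicular dendritic cells, was at 1.17. Lymph node stroma and high endothelial venule markers had a median of 0.10, with 6 of 7 higher and sums of 17575 and 20552. *Ccl21a* was at 0.36, *Glycam1* at 0.09 and *Madcam1*, a venule adhesion molecule, at -0.22. The part of the lymph node in the values of the 36 genes was not tested.

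Macrophage and myeloid markers had a median of 0.22, with 6 of 11 higher. Erythroid markers stood at 0.23 and adipocyte markers at 0.09, and endothelial markers at -0.32. Skeletal muscle markers had a median of 0.75, with 6 of 6 higher and sums of 431 in wild-type and 833 in Npffr1-KO, led by the actin *Acta1* at 1.26. The highest values of the list were those of *Acta1*, 171 for wild-type and 410 for Npffr1-KO, and *Myh4*, a myosin of fast muscle fibres, had 0.16 and 0.16, the least. Thymocyte markers had a median of 0.20 over 3 genes, and of the epithelial markers only *Epcam* and *Krt18* had a mean of at least 10, at 0.34 and -0.07. Whether any of these moved the T and NK cell genes was not tested.

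**Figure D5:**
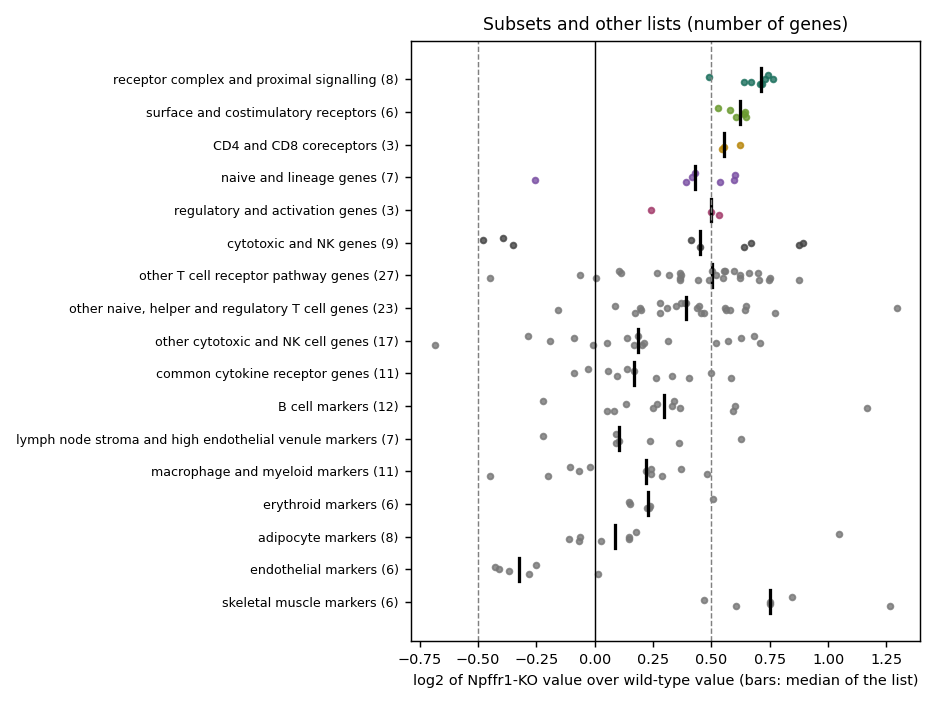
Log2 ratio of the Npffr1-KO value to the wild-type value for genes with a mean of at least 10 in the 6 subsets of the 36 genes (coloured) and in other lists (grey), 1 point per gene, with the median as a bar and the number of genes in brackets. The receptor complex has a median of 0.71, B cell markers 0.30, stroma and venule markers 0.10 and endothelial markers -0.32.

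The ratios were also read within classes of gene length. When the genes were split into 20 classes of length and the class median was taken from each log2 ratio, the median of the 36 genes was 0.52, and 20 genes were at 0.5 or more, against 3.36% of all genes. The 2 at -0.5 or less, *Gzmb* and *Ncr1*, stand against 5.17% of all genes, a share near that background. By RefSeq gene order on GRCm38.p6, the spans of 10 of the 36 genes overlap another gene, among them *Cd247*, *Tcf7*, *Gzma* and *Eomes*. Whether these overlaps fall within exons was not checked, and a stranded library was not stated. Whether reads of such pairs were mixed was therefore not tested.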

How the data were processed

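RNA of inguinal adipose tissue of 6 samples, 3 per genotype, was sequenced, and genotypes follow the sample titles. The authors' deposited table holds a signal, read counts normalized for library size, as 1 value per genotype for 19831 genes, and gene length in bases. Per the labels, the submitters' processing notes name Bowtie2, RSEM and DESeq2, with versions, genome build and annotation not given in the sources used here. The fold changes and p-values in the table, and a second table of filtered genes, were not used.

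The mean of the 2 values is the mean over 6 libraries. Genes holding 1 read in all take 6 distinct values, which gave the size factors and the genotype of each library. Whole reads of each library were then found by lattice reduction. A single match was required up to a mean of 95, where 98.0% of 7444 genes were solved and, of 5084 genes whose log2 ratio was past 0.1, 100% had the direction of the genotype values. Between 95 and 300, where several matches occur, a ratio of the deposited to the computed change between 0.8 and 0.99 (for changes under 0.15, a gap of up to 0.04) and a posterior of at least 0.99 were required, and 2118 of 2506 genes were solved. These include some genes with a mean under 95 whose value in either genotype was higher than that. In the class of 250 to 300, which holds *Themis*, *Gata3* and *Ctla4*, all 479 genes had several matches and 64.5% were solved, so their reads are the least certain. The search and the fit were tested on simulated data.

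Because the libraries had no deposited counts, limma 3.58.1 (R 4.3.3) with an intensity trend was fitted to log2(normalized reads + 1). Scripts used Python 3.11.15, numpy 2.4.6, pandas 2.3.3 and scipy 1.17.1. List medians cover genes with a mean of at least 10. Profiles and ratios planned per library were limited to genes with reads. All 36 genes are named, and of the other lists at most the 4 genes of highest mean and those past the threshold. *Rag1*, *Dntt*, *Foxp3*, *Plcg1*, *Itga2*, *Klrb1c*, *Klre1*, *Cr2*, *Vpreb3*, *Chst4*, *Madcam1* and *Myh4* were named after their values were seen. The ratios of *Eomes* to *Tbx21*, *Il2ra* to *Cd4* and *Foxp3* to *Cd4* were not planned. Members and lists were chosen with earlier results of these data known. Promoters are RefSeq's on GRCm38.p6, which also gave the gene order. The alternatives tried are given in the closing section.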

Additional observations from a re-analysis of the deposited data

How the results depend on the processing

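In the genotype values, 24 of the 36 genes had a log2 ratio of at least 0.5, 31 at least 0.25 and 0 at least 1. At 0.25 this stands against 18.0% of all genes, and 4 members were at -0.25 or less, against 16.6%. Pseudocounts of 1 and 10, no filter, a mean of at least 50, length classes and centring on the median of all genes gave counts of 20 to 24 and medians of 0.52 to 0.60, all above 0. The median of the cytotoxic and NK subset went from 0.45 to 0.56 at a mean of at least 50, and that of the receptor complex from 0.71 to 0.55 in length classes. In the limma fit up to a mean of 95, 0 of 4 members passed under every alternative run, and leaving out 1 library at a time gave 0 to 0. The number of all genes past the threshold ran from 0 to 2. With genes up to a mean of 200, 14 genes and 0 of 7 members passed. Up to a mean of 300, 2 of 10 members passed, and 2 with length classes, where all genes past the threshold went from 38 to 24. Leaving out 1 library at a time in that fit gave 0 to 2 members and 4 to 76 genes. Fits up to 200 and 300 were chosen after seeing the data. The log2 ratios of *Cd8a* to *Cd4* and of *Gzma* to *Cd3e* moved by under 0.1 with 0 or 5 added in place of 1. No paired analysis was possible because the columns carry no replicate numbers and the recovered libraries could not be tied to samples. For the 26 members with a mean over 300, no value per library was available and no test between the genotypes was run.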
